A study of Homo sapiens with 4 samples.

Results

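The 9 genes described here encode enzymes that make NADPH or feed the pathways that make it. They are PGD, TKT, TALDO1, ME1 and IDH1, which work in the cytosol, and ME2, ME3, IDH2 and NNT, which work in mitochondria. They were taken by name, through every probe set annotated with only that gene symbol, which gave 24 probe sets of the 54675 on the array and 9 of the 19775 genes with a single symbol. The RNA was that of SNU638 cells, a human gastric cancer line, carrying either a lentiviral short hairpin RNA against ACTL6A (sh-ACTL6A, 2 arrays) or a scrambled control hairpin (scramble, 2 arrays). ACTL6A is an actin-related subunit of chromatin remodelling complexes. The hairpins were in the pLKO.1 vector, and the cells had been under puromycin selection for several days. The labels leave it unclear if the sh-ACTL6A arrays shared a hairpin and if arrays of one group were separate cultures. The p-values therefore rest on a spread between arrays that may be technical.

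NADPH is the reducing agent that cells spend to regenerate glutathione and thioredoxin and to build lipids. It does not cross the inner mitochondrial membrane, so cytosol and mitochondria each have their own sources. In the cytosol the oxidative branch of the pentose phosphate pathway, malic enzyme and isocitrate dehydrogenase reduce NADP+, while mitochondria use their own malic enzymes and isocitrate dehydrogenase together with a transhydrogenase driven by the proton gradient. The study followed glutathione metabolism, which draws on NADPH, in ACTL6A-depleted cells. In these cells it reported lower ratios of reduced to oxidised glutathione and of NADP+ to NADPH.

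ACTL6A, the targeted gene, read 10.16 and 10.32 on the sh-ACTL6A arrays, against 11.92 and 11.82 on the scramble arrays, in log2 signal. Its signal in sh-ACTL6A cells was 0.323 of that in scramble cells (log2 change -1.63, SE 0.14, limma adjusted p = 0.0408), so the arrays matched their labels. It was below both scramble arrays on both sh-ACTL6A arrays, and lay between -1.71 and -1.55 with 1 array left out. It was not called when either scramble array was left out, but was called when either sh-ACTL6A array was. Each of those fits leaves a single array in a group. Of the 12286 genes bright enough to be tested, only ACTL6A passed an adjusted p of 0.05, which is 0.00814%, and it lay lower. Among markers of the cell line, 5 of 6 epithelial genes, EPCAM and KRT18 among them, were above the signal threshold of 5.63, and CLDN4 was not. Only 2 of 7 gastric genes, MUC5AC and GATA6, were above it. None of the 3 leukocyte markers with a value reached it, and 3 of 6 fibroblast and endothelial markers did.

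All 9 members were above the signal threshold, and none passed the adjusted p of 0.05 (limma, 0 of 9 members, adjusted p 0.875 to 0.971). Their changes lay between -0.35 and 0.41 on the log2 scale, with 4 above 0 and 5 below. The median of the 9 was -0.10, against 0.01 over all genes tested. At an unadjusted p under 0.05 there was 1 member, IDH2, where 5.5% of all genes stood. The sh-ACTL6A and scramble arrays did not overlap for 3 members, where 34.6% of all tested genes showed no overlap. IDH2 lay higher, as 19.3% of all genes did, and TALDO1 and ME2 lay lower, as 15.4% did. These counts were near the background.

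**Figure D1:**
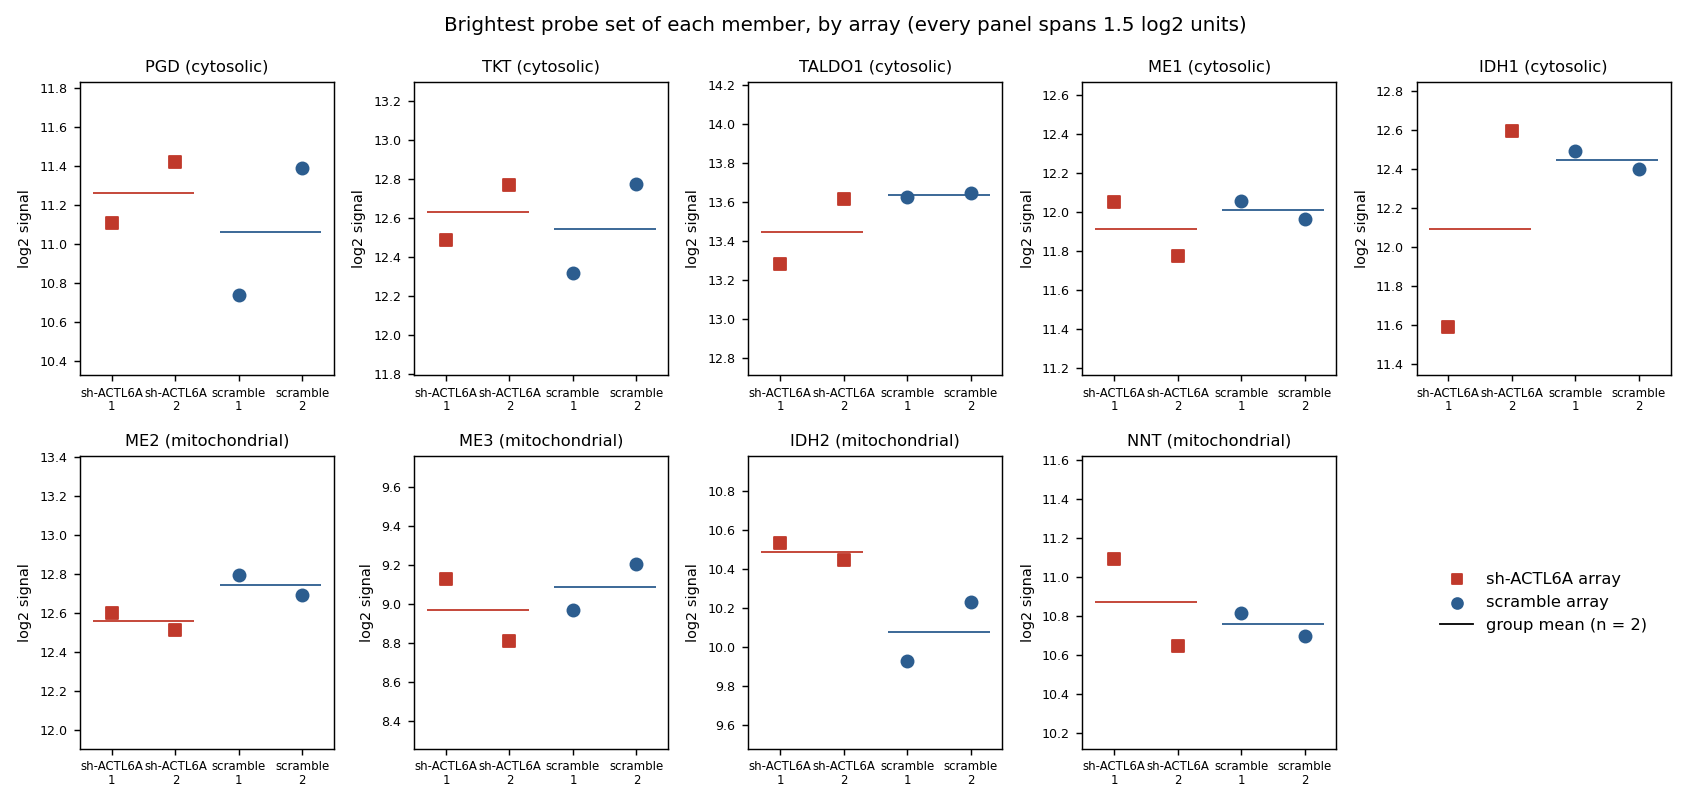
Log2 signal (vertical axes, each spanning 1.5 log2 units) of the brightest probe set of each of the 9 members on the sh-ACTL6A arrays (squares) and the scramble arrays (circles), with lines at the group means (n = 2 each). The groups do not overlap for IDH2, TALDO1 and ME2. For TALDO1 they nearly touch, at 13.61 on sh-ACTL6A replicate 2 and 13.62 on scramble replicate 1. IDH1 on sh-ACTL6A replicate 1, at 11.59, lies well below the other arrays.

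PGD, TKT and TALDO1 belong to the pentose phosphate pathway. PGD, 6-phosphogluconate dehydrogenase, makes NADPH and ribulose 5-phosphate. TKT and TALDO1, transketolase and transaldolase, make no NADPH themselves and return pentoses to glycolysis in the non-oxidative branch. PGD (chr1:10399064-10420511 in GRCh38.p14) read 11.11 and 11.42 on the sh-ACTL6A arrays, against 10.74 and 11.39 on the scramble arrays. The groups overlapped, and the lowest value was that of scramble replicate 1. PGD averaged 11.26 ± 0.22 in sh-ACTL6A and 11.06 ± 0.46 in scramble (SD, n = 2 each), a change of 0.20 ± 0.22 (SE, 95% confidence interval -0.32 to 0.72, limma adjusted p = 0.951).

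TKT (chr3:53224712-53256022) read 12.49 and 12.77 in sh-ACTL6A, against 12.32 and 12.77 in scramble. Again the second array of each group was the higher one, and the second arrays had nearly the same value. The change was 0.08 ± 0.17 (SE, 95% confidence interval -0.31 to 0.48, adjusted p = 0.971). Another bright TKT probe set, with an ID ending in _x_at, which marks probes that may bind other transcripts, gave 11.21 and 11.57 in sh-ACTL6A, against 10.89 and 11.64 in scramble, and repeated this order. A dimmer one read 6.47 and 7.13 in sh-ACTL6A, against 7.05 and 7.43 in scramble, and differed by -0.45 ± 0.34 (SE). With all 3 TKT probe sets averaged, the TKT change turned to -0.08, so that its sign depended on the probe set.

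TALDO1 (chr11:747464-765012), with a single probe set, read 13.28 and 13.61 in sh-ACTL6A, against 13.62 and 13.64 in scramble. Only sh-ACTL6A replicate 1 stood apart, and replicate 2 lay 0.02 below the scramble mean. The change was -0.19 ± 0.12 (SE, 95% confidence interval -0.47 to 0.09, adjusted p = 0.927). It became -0.35 when sh-ACTL6A replicate 2 was left out and -0.02 when replicate 1 was. Each of these fits leaves a single sh-ACTL6A array, which is assumed to vary like the scramble pair.

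Within both groups, PGD, TKT and TALDO1 were lower on replicate 1 than on replicate 2, TALDO1 by only 0.02 within scramble. All 6 of their probe sets above the signal threshold had this order in both groups, as did 24.5% of all tested genes. These probe sets are repeat readings of the same genes on the same arrays, a grouping noticed in the data. Over all tested genes, deviations of replicate 1 from the group means correlated between the groups with r = 0.0565. For PGD the gap between replicates was -0.31 within sh-ACTL6A and -0.65 within scramble, and at least as large a gap was found for 35.3% of all tested genes within sh-ACTL6A and for 6.73% within scramble. For TKT these shares were 39.5% and 13.9%. For TALDO1, with gaps of -0.33 within sh-ACTL6A and -0.02 within scramble, they were 33.1% and 92.1%. A control for RNA length also differed between replicates 1 and 2, and was higher on replicate 1 of each group, where these genes were lower. The 3′ minus the 5′ signal of ACTB was 1.21 and 0.78 on sh-ACTL6A replicates 1 and 2, against 1.63 and 0.78 on scramble replicates 1 and 2, and its part in these values was not tested.

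**Figure D2:**
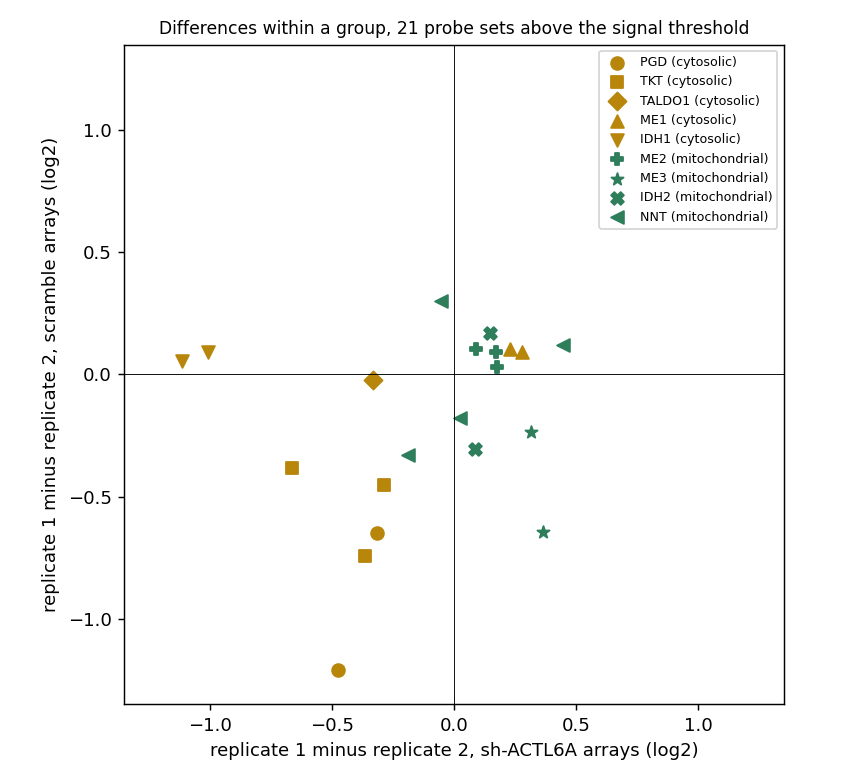
Replicate 1 minus replicate 2 within the sh-ACTL6A arrays (horizontal axis, log2) and within the scramble arrays (vertical axis, log2) for the 21 member probe sets above the signal threshold, 1 point each. The 6 points of PGD, TKT and TALDO1 lie at lower left, and both IDH1 points lie near -1 on the horizontal axis and near 0 on the vertical one.

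The malic enzymes turn malate into pyruvate. ME1 is the cytosolic NADP+-dependent form and ME3 its mitochondrial counterpart, while ME2, also mitochondrial, works mainly with NAD+. ME1 (chr6:83210402-83431051) read 12.05 and 11.77 in sh-ACTL6A, against 12.06 and 11.96 in scramble. The groups overlapped, with sh-ACTL6A replicate 2 the lowest. The change was -0.10 ± 0.14 (SE, 95% confidence interval -0.41 to 0.22, adjusted p = 0.964).

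Another bright ME1 probe set separated the groups, at 10.96 and 10.73 in sh-ACTL6A and 11.27 and 11.16 in scramble. Both sh-ACTL6A arrays lay below both scramble arrays, by -0.37 ± 0.13 (SE, 95% confidence interval -0.68 to -0.05). This did not pass when adjusted over 54613 probe sets (limma adjusted p = 0.960), of which 0% passed. The remaining ME1 probe set was below the signal threshold and went the other way, at 5.26 and 4.32 in sh-ACTL6A and 3.73 and 2.61 in scramble. Averaging all 3 turned the ME1 change to 0.38, a value that this dim probe set sets.

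ME2 (chr18:50879118-50954257) read 12.60 and 12.51 in sh-ACTL6A, against 12.80 and 12.69 in scramble. Its arrays were close within each group and did not overlap between them, with a change of -0.19 ± 0.11 (SE, 95% confidence interval -0.43 to 0.06, adjusted p = 0.918). The fold of 0.878 had bounds of 0.740 and 1.04. The other ME2 probe sets, both bright, differed by -0.13 without overlap and by -0.03 with overlap. ME3 (chr11:86434930-86672616) read 9.13 and 8.81 in sh-ACTL6A, against 8.97 and 9.21 in scramble, with overlap. Its change was -0.12 ± 0.19 (SE, 95% confidence interval -0.57 to 0.33, adjusted p = 0.966). The dimmer ME3 probe set differed by -0.30 ± 0.42 (SE), also with overlap.

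IDH1 and IDH2 are NADP+-dependent isocitrate dehydrogenases that produce 2-oxoglutarate and NADPH, IDH1 in the cytosol and peroxisomes and IDH2 in mitochondria. IDH1 (chr2:208236227-208255071) read 11.59 and 12.60 in sh-ACTL6A, against 12.49 and 12.40 in scramble. The sh-ACTL6A arrays fell on opposite sides of the scramble pair, at -0.86 and 0.15 from its mean. They differed from each other by 1.01 on the log2 scale, and 3.79% of tested genes differed as much between these arrays. The scramble arrays differed by only 0.09 for IDH1.

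The second bright IDH1 probe set had the same pattern, with 11.37 and 12.48 in sh-ACTL6A and 12.19 and 12.14 in scramble. Over both groups the IDH1 change was -0.35 ± 0.28 (SE, 95% confidence interval -1.0 to 0.30, adjusted p = 0.941), an interval that runs in folds between 0.499 and 1.23. Without sh-ACTL6A replicate 2, IDH1 differed by -0.86 (limma adjusted p = 0.000439), in a fit that called 1.96% of genes lower. Without sh-ACTL6A replicate 1 it differed by 0.15 (adjusted p = 0.564). A difference between hairpins, cultures or arrays cannot be told apart here. A dim IDH1 probe set moved the other way on sh-ACTL6A replicate 1, reading 5.97 and 5.20 in sh-ACTL6A against 5.19 and 5.18 in scramble.

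IDH2 (chr15:90083045-90102468) was the member with the smallest unadjusted p. It read 10.53 and 10.44 in sh-ACTL6A, against 9.93 and 10.23 in scramble. Both sh-ACTL6A arrays were above both scramble arrays, with a mean of 10.49 ± 0.06 in sh-ACTL6A and 10.08 ± 0.22 in scramble (SD, n = 2 each). The fold was 1.33 with bounds of 1.02 and 1.73, and the difference of 0.41 ± 0.16 (SE) did not pass (limma adjusted p = 0.875, unadjusted p = 0.0374). The second IDH2 probe set did not overlap either, at 7.67 and 7.52 in sh-ACTL6A and 7.36 and 7.19 in scramble, 0.33 ± 0.24 apart (SE, limma adjusted p = 0.960). With each array left out in turn, IDH2 stayed between 0.26 and 0.56.

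NNT (chr5:43602675-43707396) encodes the transhydrogenase of the inner mitochondrial membrane, which passes hydride from NADH to NADP+. It read 11.09 and 10.65 in sh-ACTL6A, against 10.82 and 10.69 in scramble, so the sh-ACTL6A arrays bracketed the scramble pair. The change was 0.11 ± 0.18 (SE, 95% confidence interval -0.30 to 0.53, adjusted p = 0.966). All 4 NNT probe sets had a mean difference above 0, from 0.03 to 0.28. The groups did not overlap for another bright one, at 10.29 and 10.26 in sh-ACTL6A and 10.04 and 10.22 in scramble, nor for the dimmest.

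Over all 24 member probe sets the differences ran from -0.45 to 1.76, with 13 above 0 and 11 below, and the groups did not overlap for 7 higher and 4 lower ones. Of all probe sets on the array, 33.8% did not overlap. At an unadjusted p under 0.05 there were 2, the brighter IDH2 one and the ME1 one 0.37 lower in sh-ACTL6A, where 5.01% of all probe sets stood. Those that differed by more than 1 were both below the signal threshold. They were the ME1 probe set above and a PGD one, which read 5.21 and 5.43 in sh-ACTL6A and 2.53 and 4.59 in scramble. Among the 21 brighter probe sets the range was -0.45 to 0.41.

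**Figure D3:**
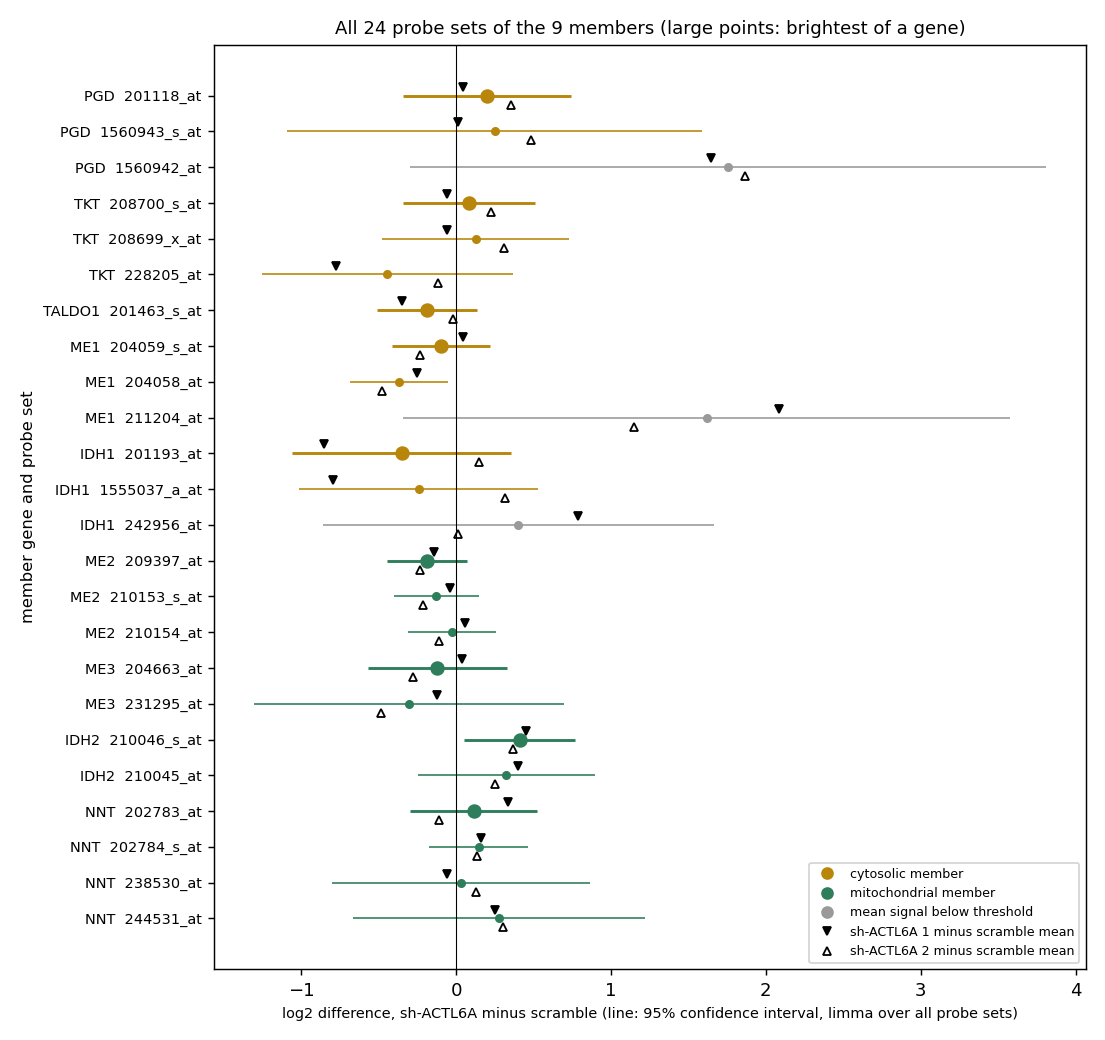
Log2 difference (sh-ACTL6A minus scramble, horizontal axis) with its 95% confidence interval for each of the 24 probe sets (vertical axis), with a triangle for each sh-ACTL6A array against the mean of the scramble arrays. Both triangles lie right of 0 for all 3 PGD probe sets, both IDH2 ones, 2 of the 4 NNT ones and the dim ones of ME1 and IDH1, those of the 2 bright IDH1 probe sets fall on opposite sides, and the widest intervals belong to dim probe sets in grey.

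The cytosolic and the mitochondrial members did not keep one order on the sh-ACTL6A arrays. The 5 cytosolic members had a median change of -0.10, with 2 above 0 and 3 below, and the 4 mitochondrial members had one of -0.004, with 2 above 0 and 2 below. The cytosolic minus the mitochondrial median was -0.09. On sh-ACTL6A replicate 1 the cytosolic median lay -0.06 and the mitochondrial one 0.19 from the scramble means. On sh-ACTL6A replicate 2 the order was the opposite, with the cytosolic median at 0.15 and the mitochondrial one at -0.17. The gap between compartments was thus -0.25 on one sh-ACTL6A array and 0.32 on the other. On the scramble arrays it was 0.02 and -0.02. These values mirror each other because the scramble mean is the reference, so they are not an independent baseline.

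**Figure D4:**
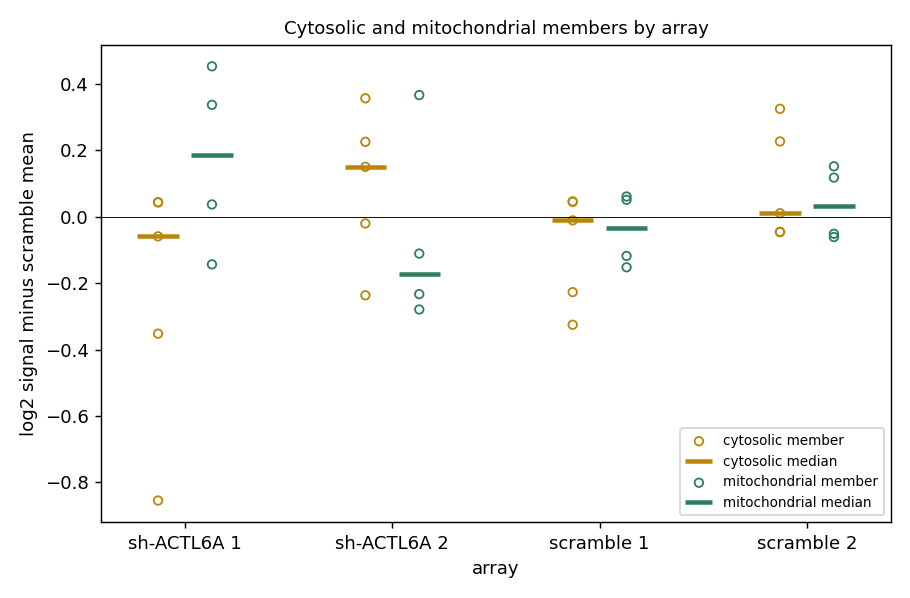
Log2 signal minus the scramble mean (vertical axis) for the 5 cytosolic and 4 mitochondrial members (open circles) on each array (horizontal axis), with bars at the medians. The cytosolic bar lies below the mitochondrial bar on sh-ACTL6A replicate 1 and above it on replicate 2.

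NRF2, a transcription factor that the study examined together with ACTL6A at the promoter of GCLC, is known to act through antioxidant response elements, and PGD, TKT, TALDO1, ME1 and IDH1 are among the genes it is known to drive. The core TGACNNNGC was therefore searched on both strands of the RefSeq promoter windows (GRCh38.p14, 250 bases before to 50 after each start). All 9 members had windows, 13 in all, and 3 of these held the core, each of a cytosolic gene. Over all 35116 windows 13.3% held it, against 23.1% of the member windows. By gene, 16.1% of all 27305 genes held it, against 3 of the 9 members, and these differences were not tested. The matches are shown because they sit in PGD, ME1 and IDH1, with the core in capitals.
PGD, chr1:10398853-10398881, minus strand: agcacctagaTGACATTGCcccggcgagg
ME1, chr6:83431170-83431198, minus strand: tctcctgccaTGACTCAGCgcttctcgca
ME1, chr6:83431022-83431050, plus strand: gctgctggggTGACGGTGCtgactgcagc
IDH1, chr2:208255196-208255224, minus strand: cccctctcgcTGACTCCGCccatcccacg

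On the strand of each gene, the cores began 201 bases before the start in PGD, 137 bases before and 12 bases after it in ME1, and 143 bases before the upstream start in IDH1. The first ME1 core also contains TGACTCA, the letters of an AP-1 site. The genes that hold the core changed by 0.20 (PGD), -0.10 (ME1) and -0.35 (IDH1), none past the threshold, and those without it by between -0.19 and 0.41. No match in TKT or TALDO1 says only that these letters are not in these windows.

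Genes around the NADPH sources were read from 7 further lists with 63 entries, of which 47 were tested, and 0 of them passed the adjusted threshold (limma adjusted p 0.414 to 0.9999). At an unadjusted p under 0.05 there were 3, RPE, ALDH18A1 and DHCR7, where 5.5% of all genes stood, so this count was near the background. Among 9 other pentose phosphate genes, 2 lay above 0 and 7 below (median -0.09). RPE, which interconverts ribulose and xylulose 5-phosphate downstream of PGD, read 12.20 and 11.59 in sh-ACTL6A, against 12.51 and 12.38 in scramble, a difference of -0.55 ± 0.19 (SE, adjusted p = 0.846). All 3 bright RPE probe sets had both sh-ACTL6A arrays below both scramble arrays, with differences of -0.55, -0.55 and -0.57. RBKS, ribokinase, differed by -0.30 ± 0.24 (SE) and PRPS1, which makes phosphoribosyl pyrophosphate, by 0.17 ± 0.11 (SE).

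The folate pathway is another source of NADPH, though not every enzyme in it makes NADPH. Of 6 tested, 3 lay above 0 and 3 below (median -0.01), with MTHFD2, a mitochondrial dehydrogenase of this pathway, at 0.08 ± 0.14 (SE). SHMT2, the mitochondrial serine hydroxymethyltransferase, read 12.42 and 11.39 in sh-ACTL6A, against 12.43 and 12.34 in scramble. Here sh-ACTL6A replicate 2 stood apart, and another bright probe set repeated it with 11.25 and 10.24 in sh-ACTL6A, against 11.16 and 11.28 in scramble. A dimmer SHMT2 probe set, also above the threshold, read 9.69 and 9.25 in sh-ACTL6A, against 9.72 and 9.91 in scramble. Its groups did not overlap, with a difference of -0.34 ± 0.19 (SE). In the supply of NADP, 5 of 6 genes lay above 0 (median 0.15), but the median was -0.0026 without sh-ACTL6A replicate 1. NADK, the cytosolic NAD kinase, read 11.49 and 11.60 in sh-ACTL6A, against 11.26 and 11.34 in scramble, a difference of 0.24 ± 0.13 (SE, adjusted p = 0.918), while NADK2, its mitochondrial counterpart, differed by -0.09 ± 0.14 (SE).

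Genes that supply malate and isocitrate, 9 tested, had a median of -0.01 and ran from -0.63 (ACO1) to 0.84 (PC). The change of PC was 0.84 ± 0.57 (SE), with overlap and a mean signal of 5.86, near the threshold. The mitochondrial dicarboxylate carrier SLC25A10 was at 0.40 ± 0.25 (SE) and ACLY, ATP citrate lyase, at -0.10 ± 0.10 (SE). The 4 NAD-linked relatives IDH3A, IDH3B, IDH3G and GLUD1 had a median of -0.05. Cytosolic users of NADPH, 10 tested, had 4 above 0 and 6 below (median -0.14). The groups did not overlap for any of those 6, where 15.4% of all genes lay lower without overlap. AKR1C1, among these 6, had a second probe set above the threshold that differed by -0.09 with overlap. Over all 7 lists the groups did not overlap for 17 of the 47 tested genes, near the 34.6% of all genes. The median of the cytosolic users turned to 0.08 with no filter on dim genes. It was 0.05 when each gene was the mean of its probe sets. TXNRD1, thioredoxin reductase, differed by -0.16 ± 0.08 (SE) and NQO1, a quinone reductase, by -0.21 ± 0.10 (SE). DHCR7, the last reductase of cholesterol synthesis, read 10.69 and 10.37 in sh-ACTL6A, against 11.22 and 10.81 in scramble, but its second bright probe set differed by 0.08 with overlap.

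Among mitochondrial users, ALDH18A1, which spends NADPH to start proline synthesis, read 12.32 and 12.24 in sh-ACTL6A, against 11.71 and 11.69 in scramble. Its arrays were close within each group, and the difference was 0.58 ± 0.11 (SE, unadjusted p = 0.00106, adjusted p = 0.414). The second ALDH18A1 probe set also did not overlap, at 11.06 and 11.23 in sh-ACTL6A and 10.45 and 10.68 in scramble. PYCR1, the reductase that completes proline synthesis, differed by 0.004 ± 0.17 (SE), and TXNRD2 by -0.04 ± 0.30 (SE).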

How the data were processed

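The authors deposited log2 signals of 54675 probe sets for 4 single-colour Affymetrix arrays. The submitters' processing notes name MAS5, which summarises each array alone and scales it globally, so that the linear signal trimmed by 2% at each end averaged 500.0 on every array. Values were used as deposited. The MAS5 signal of a dim probe set is imprecise, and a level cannot be compared between probe sets. The probe table and the current gene table gave the same symbol for all 24 member probe sets.

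Each gene was represented by its probe set with the highest mean. It was tested where that mean was at least 5.63, the 50th percentile of 54613 non-control probe sets. This kept 12286 genes. Differences, sh-ACTL6A minus scramble, were assessed by limma 3.58.1 under R 4.3.3 (lmFit, eBayes with intensity trend, 2-sided, 7.65 degrees of freedom) with Benjamini-Hochberg adjustment over all genes, or over all non-control probe sets for single probe sets. With 2 arrays per group their number limits the precision, and an exact permutation test cannot go below p = 0.333. The members, lists, named genes (the members, and up to 4 genes per list by unadjusted p) and tests were chosen with earlier results of these data known. Medians over members were not tested. Alternatives were quantile normalisation, median centring, 2 other filters, 2 other choices of probe set, an offset of 16, no trend, the methods' t-test, a replicate block and each array left out.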

Additional observations from a re-analysis of the deposited data

How the results depend on the processing

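No member was called under any of the 10 alternatives that keep all arrays. The unadjusted p of IDH2 was not under 0.05 after quantile normalisation, with probe sets averaged, without the intensity trend or by the methods' t-test. In that t-test ME2 was the member with the smallest p. Leaving out 1 array gave 0 to 2 called members, the 2 being IDH1 and TALDO1 without sh-ACTL6A replicate 2, 0 to 141 genes called higher and 0 to 260 called lower. ACTL6A was not called after quantile normalisation (-1.64, 0 genes called lower), nor with no filter on dim genes, without the intensity trend or by the methods' t-test (-1.63 and 0 genes lower in each), and lay between -1.71 and -1.55 with 1 array left out. It was also not called when either scramble array was left out, but was called when either sh-ACTL6A array was. With the replicate number as a block, 2 genes were called lower in place of 1, neither a member. The numbers share no stated culture, and the deviations of replicate 1 correlated across genes with r = 0.0565. Averaging all probe sets turned TKT to -0.079 and ME1 to 0.38, and median centring turned the dimmest ME2 probe set to 0.0042. The mitochondrial median turned to 0.028 with median centring and to 0.014 with all probe sets averaged. Alternatives with all arrays also gave ranges across 0 for some list medians. These were -0.11 to 0.051 for folate enzymes, -0.050 to 0.023 for malate and isocitrate supply and -0.018 to 0.29 for mitochondrial users.

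With 1 array left out, ranges that crossed 0 were -0.14 to 0.15 for the cytosolic median, -0.17 to 0.19 for the mitochondrial median and -0.25 to 0.32 for their difference. Among members they were -0.12 to 0.53 for PGD, -0.14 to 0.31 for TKT, -0.24 to 0.043 for ME1, -0.86 to 0.15 for IDH1, -0.28 to 0.037 for ME3 and -0.11 to 0.34 for NNT, each also the range of the gene's brightest probe set. Among further probe sets they were -0.36 to 0.85 for the next PGD one, -0.25 to 0.50 for the TKT one ending in _x_at, -0.80 to 0.31 for the second bright IDH1 one, -0.11 to 0.059 for the dimmest ME2 one, -0.63 to 0.019 for the dimmer ME3 one and -0.13 to 0.20 for a dimmer NNT one. Among list medians they were -0.16 to 0.037 for folate enzymes, -0.0026 to 0.19 for the supply of NADP, -0.083 to 0.060 for malate and isocitrate supply and -0.15 to 0.26 for mitochondrial users. The median of cytosolic users turned to 0.077 with no filter on dim genes and to 0.055 with all probe sets averaged. The cause of these changes was not tested beyond the array left out. The genes TALDO1, ME2 and IDH2 kept their sign in every alternative run. Their groups did not overlap, so leaving out 1 array could not have turned the sign.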

Other observations

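ACO1 and SHMT2, picked from the 47 tested list genes with their values known, also split the sh-ACTL6A arrays, and not in the same direction. Replicate 1 minus replicate 2 within sh-ACTL6A was -1.56 for ACO1 and 1.03 for SHMT2. Of all tested genes, 3.79% had a gap at least as large as the -1.01 of IDH1. ACO1, the cytosolic aconitase that makes isocitrate for IDH1, read 9.20 and 10.76 in sh-ACTL6A, against 10.64 and 10.58 in scramble, so that sh-ACTL6A replicate 1 was low, as it was for IDH1. SHMT2 was instead low on sh-ACTL6A replicate 2. The ACO1 and SHMT2 differences between groups were -0.63 ± 0.42 (SE, limma adjusted p = 0.930) and -0.48 ± 0.29 (SE, adjusted p = 0.918). Each is that of the gene's brightest probe set, where it rests on 1 array. The dimmer SHMT2 probe set above the threshold had both sh-ACTL6A arrays below both scramble arrays. There sh-ACTL6A replicates 1 and 2 lay -0.12 and -0.56 from the scramble mean. Whether the sh-ACTL6A arrays carried different hairpins is not stated.

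RPE and ALDH18A1, in contrast, differed in the same direction on both sh-ACTL6A arrays and in every probe set above the signal threshold, 3 for RPE and 2 for ALDH18A1. They were picked from the lists for their small p-values, in a count of such genes near the background, and neither passed adjustment over all genes.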
